A study of Mus musculus with 36 samples.

Results

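Expression of 10 genes was followed through 4 kinds of primary mouse cells treated with the ketone body β-hydroxybutyrate (βOHB) or with butyrate. The genes are the FOXO transcription factors Foxo1, Foxo3 and Foxo4, the superoxide dismutases Sod1 and Sod2, catalase (Cat), the metallothioneins Mt1 and Mt2, and the muscle ubiquitin ligases Fbxo32 and Trim63. They were chosen by name, because Foxo3, Cat, Sod2 and Mt2 had been proposed as genes that βOHB induces by inhibiting histone deacetylases, and all 10 were found among the 54347 genes of the count table. Adipocytes were differentiated from the stromal vascular cells of inguinal fat pooled from several mice, macrophages from bone marrow, and myotubes from hindlimb myoblasts, whereas hepatocytes were isolated by perfusion of the liver. The labels give the strain of all cells as C57Bl/6, the methods name C57BL/6NHsd for the hepatocytes, and the donors were males whose age is not given in the sources used here. Treatment lasted 6 h in the culture medium of each cell type, with PBS for the controls and with βOHB or butyrate at 5 mM otherwise, and 3 libraries were made for each of the 12 groups, 36 in all. The labels do not say whether the replicates came from separate animals or isolations, so p-values measure only the spread between these libraries.

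FOXO factors are held in the cytoplasm when insulin activates AKT, and in fasting they enter the nucleus and switch on genes of stress resistance, gluconeogenesis and protein breakdown. Superoxide dismutases turn superoxide into hydrogen peroxide, SOD1 mainly in the cytosol and SOD2 in mitochondria, and catalase breaks hydrogen peroxide down in peroxisomes. Metallothioneins are small cysteine-rich proteins that bind zinc and copper, and their genes respond to metals through the factor MTF1 and to glucocorticoids. Fbxo32 (atrogin-1) and Trim63 (MuRF1) mark proteins for the proteasome in wasting muscle and are known FOXO targets. Butyrate, a product of fermentation in the gut, differs from βOHB by the lack of a hydroxyl group and is an established inhibitor of class I histone deacetylases.

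The upstream sequences of Mt1, Mt2 and Trim63 are shown because the metallothioneins were the only members of the group that rose under butyrate in all 4 cell types, and because Trim63 was detected in myotubes alone. Mt2 and Mt1 lie on the plus strand of chromosome 8, at positions 94172664-94173568 and 94179082-94180327 of GRCm38, with 5513 bases between them, and Trim63 lies on the plus strand of chromosome 4 at 134315120-134329629. The other genes lie elsewhere in the genome (GENCODE M21), Foxo1 on chromosome 3 at 52268336-52353221, Foxo3 on chromosome 10 at 42181841-42276755 and Foxo4 on chromosome X at 101254528-101260873. Sod1 is on chromosome 16 at 90220754-90226329, Sod2 on chromosome 17 at 13006846-13040063, Cat on chromosome 2 at 103453849-103485160 and Fbxo32 on chromosome 15 at 58175879-58214932. Each sequence below covers the 250 bases before the RefSeq start site (GRCm38.p6), written 5′ to 3′. Capitals in the metallothionein sequences mark the metal response core TGCACNC or TGCGCNC on either strand, and in Trim63 they mark the forkhead motif GTAAACA on either strand.
Mt1 (chr8:94178839-94179088, plus strand): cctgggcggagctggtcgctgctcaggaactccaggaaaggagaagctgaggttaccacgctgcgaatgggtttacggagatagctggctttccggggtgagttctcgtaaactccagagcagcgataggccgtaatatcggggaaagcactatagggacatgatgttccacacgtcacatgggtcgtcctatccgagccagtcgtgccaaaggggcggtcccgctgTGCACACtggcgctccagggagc
Mt2 (chr8:94172368-94172617, plus strand): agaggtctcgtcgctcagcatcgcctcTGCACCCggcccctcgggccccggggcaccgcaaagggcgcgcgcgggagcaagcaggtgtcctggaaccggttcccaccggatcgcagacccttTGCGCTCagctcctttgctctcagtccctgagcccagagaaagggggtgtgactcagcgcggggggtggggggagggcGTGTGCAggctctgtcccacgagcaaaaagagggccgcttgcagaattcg
Trim63 (chr4:134314870-134315119, plus strand): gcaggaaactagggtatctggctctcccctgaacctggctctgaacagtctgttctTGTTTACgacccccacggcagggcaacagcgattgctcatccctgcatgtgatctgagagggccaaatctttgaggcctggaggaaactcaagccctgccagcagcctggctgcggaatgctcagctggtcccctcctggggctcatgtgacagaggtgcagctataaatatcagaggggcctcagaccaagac

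Mt1 held 1 metal response core in this window, 23 bases before its start, and Mt2 held 3, at 223, 128 and 50 bases before its start. The Mt1 window ended at 94179088, inside the gene as GENCODE annotates it, from 94179082. Letters beyond each window were not searched, so these counts depend on the start site used and do not give all metal response cores of either gene. Of 32851 RefSeq promoter windows of the same length, 21.4% held at least 1 such core and 1.26% held 3 or more. The forkhead motif of Trim63 began 194 bases before its start, and 3.17% of all windows held that motif. An upstream sequence was at hand for 8 of the 10 genes, Foxo4 and Fbxo32 being the exceptions, and among the others no forkhead motif was found in these letters. The antioxidant response core TGACNNNGC was matched at 56 bases before the start of Sod1 and at 79 bases before that of Mt2, against 10.2% of all windows, and the match of Mt2 did not overlap its metal response cores. Foxo3 also held 1 metal response core, 153 bases before its start. A match of letters describes the sequence and does not show that a factor was bound.

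Depth was 18366289 to 23221473 estimated counts per library, and levels are given as CPM (counts scaled to library size) after TMM scaling, which corrects for differences in composition. All markers of each cell type were highest in the cells of that label (7 of 7 for adipocytes, and 8 of 8 for macrophages, myotubes and hepatocytes). Markers nevertheless moved with the treatment. Under butyrate the summed level of 4 endothelial markers in hepatocytes was 19.7 to 23.3 CPM, against 64.6 to 72.1 CPM in the controls, and in adipocytes it was 117 to 134 CPM against 176 to 202 CPM. The 7 adipocyte markers summed to 6710 to 8070 CPM in butyrate-treated adipocytes and to 8940 to 9670 CPM in their controls, and the part of these shifts in the results below was not tested. In the myotube libraries, markers of macrophages and of hepatocytes moved as well, and the source of these reads was not tested. The summed level of 8 macrophage markers was 138 to 370 CPM in the controls, 50.7 to 135 CPM under βOHB and 18.9 to 91.2 CPM under butyrate, and all 8 were lower under both compounds by the test (median log2 fold change -1.71 under βOHB and -2.53 under butyrate). The summed level of 8 hepatocyte markers was 11.9 to 15.8 CPM in the myotube controls and 41.8, 584 and 140 CPM in butyrate replicates 1, 2 and 3. In the controls this sum was nearly all F2 (prothrombin), at a mean of 14.4 CPM there, 16 CPM under βOHB and 13.1 CPM under butyrate, and the other 7 markers were at or near 0. Albumin, the main plasma protein of the liver, was at 0, 0.044 and 0.044 CPM in the myotube controls, at 0, 0 and 18.4 CPM under βOHB and at 23.5, 432 and 95.3 CPM under butyrate. Over 6 hepatocyte markers that were near 0 in the myotube controls, the median level in the butyrate libraries was 0.0829%, 1.4% and 0.347% of that in hepatocytes, and it was 0.0546% in βOHB replicate 3. The single markers ranged from 0.0524% to 0.224% in butyrate replicate 1, from 1.13% to 1.95% in replicate 2 and from 0.115% to 0.826% in replicate 3. For the members called in myotubes under butyrate, log2 fold changes are therefore also given without butyrate replicates 2 and 3. In bulk RNA, fewer cells of a type and less RNA per cell cannot be told apart.

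**Figure D1:**
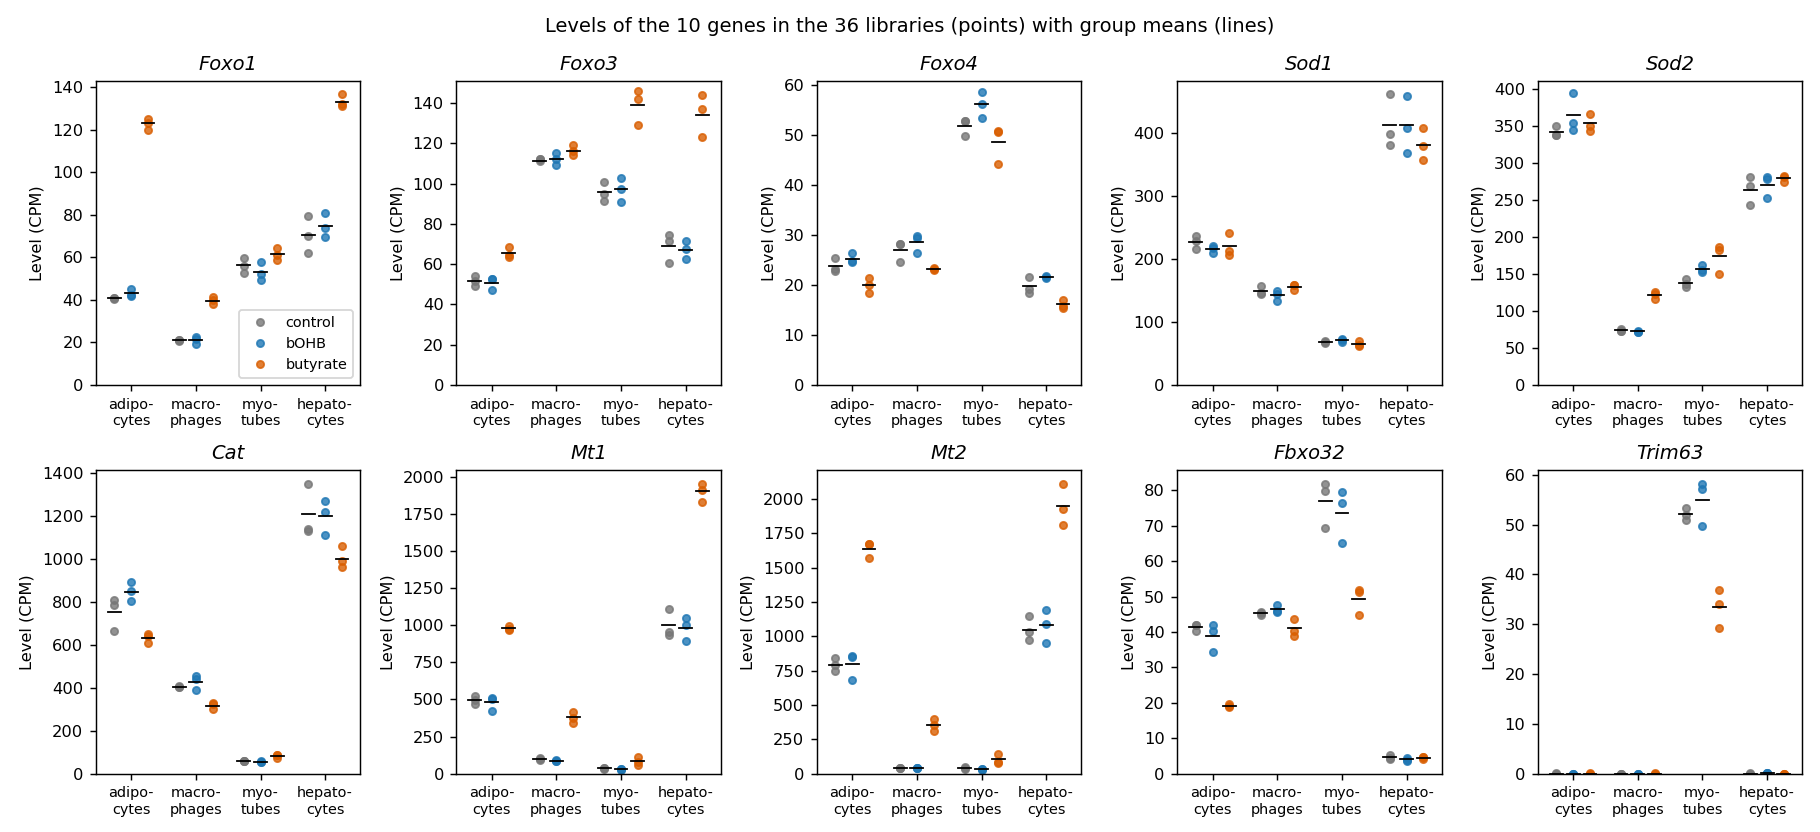
Level of each of the 10 genes in CPM after TMM scaling (vertical axes, linear and starting at 0) in 4 cell types, with 3 libraries per treatment as points and group means as lines. Mt1 and Mt2 sit higher under butyrate in every cell type, and Foxo1 rises from 40.8 to 123 CPM in adipocytes. The βOHB points do not overlap the controls in 7 of the 37 comparisons above a floor of 3 counts per library.

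Levels in the control cells differed among the cell types for all 10 genes by edgeR's quasi-likelihood test, as they did for 98.5% of the 15340 genes tested. Cat, Mt1, Mt2 and Sod1 were highest in hepatocytes, and each of these was followed by adipocytes. Cat was at 1210 ± 125 CPM (mean ± SD, n = 3, as for all levels below) in hepatocytes, 753 ± 77.4 in adipocytes, 405 ± 3.86 in macrophages and 60.2 ± 0.858 in myotubes. Mt2 was at 1050 ± 93.1 CPM in hepatocytes, 795 ± 47.9 in adipocytes, 42.1 ± 3.03 in macrophages and 42.1 ± 4.39 in myotubes, and the last 2 of these did not differ beyond their spread (adjusted p = 1). Sod2 was highest in adipocytes, at 342 ± 7.17 CPM, and lowest in macrophages, at 74.3 ± 1.9. The FOXO genes were ordered differently from each other, since Foxo1 was highest in hepatocytes (70.5 ± 8.63 CPM), Foxo3 in macrophages (111 ± 0.284) and Foxo4 in myotubes (51.8 ± 1.71). The ubiquitin ligases were highest in myotubes, with Fbxo32 at 77.1 ± 6.76 CPM there and at 45.3 ± 0.387 in macrophages, 41.5 ± 1.04 in adipocytes and 4.69 ± 0.623 in hepatocytes. The levels of Fbxo32 in macrophages and adipocytes did not differ beyond their spread (adjusted p = 0.134). Trim63 was at 52.1 ± 1.21 CPM in myotube controls, and in the libraries of the other 3 cell types it had between 0 and 3 counts, which is at the detection floor of 3 counts per library, so no fold change is given for it there. Apart from Trim63 among the 3 cell types at the floor, all other neighbours in the order of each gene differed at an adjusted p below 0.05. Between pairs of cell types such differences in control level were found for 77.5% of all tested genes (adipocytes and macrophages), 78.2% (adipocytes and myotubes), 81.1% (adipocytes and hepatocytes), 82.2% (macrophages and myotubes), 82.1% (macrophages and hepatocytes) and 86.6% (myotubes and hepatocytes).

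Genes can be compared with each other only per length of transcript. Dividing CPM by the combined exon length in kb, the level in control hepatocytes was 1786 for Mt2, 802 for Mt1, 463 for Cat, 104 for Sod1 26.4 for Sod2, 9.1 for Foxo3, 8.14 for Foxo1, 5.65 for Foxo4 and 0.672 for Fbxo32. In control myotubes the same measure was 71.6 for Mt2, 30.3 for Mt1, 23 for Cat, 18.3 for Trim63, 17.1 for Sod1, 14.9 for Foxo4, 13.8 for Sod2, 12.6 for Foxo3, 11.1 for Fbxo32 and 6.49 for Foxo1. In control macrophages it was 155 for Cat, 80.3 for Mt1 and 71.6 for Mt2. By this measure catalase stood above the metallothioneins there and below them in the other cell types, an order that depends on the exon lengths used. The combined exon length joins the exons of all annotated transcripts of a gene, long and short. For Mt1 it was 1246 bases, the whole span of the gene, and for Sod1 it was 3970 bases. Levels per length can therefore be too low, and the order of the genes is uncertain. For Sod2, in addition, 26.6% of its 31-base words occurred in transcripts of other genes, against 5.41% for Sod1 and 0% for Mt1.

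Butyrate changed 7 of the 9 genes above the detection floor in adipocytes (4 higher, 3 lower), 6 of 9 in macrophages (4 higher, 2 lower), 7 of 10 in myotubes (5 higher, 2 lower) and 6 of 9 in hepatocytes (4 higher, 2 lower) at an adjusted p below 0.05. Butyrate also changed 61% of all tested genes in adipocytes, 65% in macrophages, 66.5% in myotubes and 63.5% in hepatocytes, so the share of these genes that responded was near that of the transcriptome. By direction, 30.7% of all tested genes were higher and 30.3% lower in adipocytes, 31.9% and 33.2% in macrophages, 33.1% and 33.4% in myotubes and 31% and 32.4% in hepatocytes. Groups whose libraries do not overlap were found for 67.3%, 72.2%, 64.8% and 68.5% of all tested genes in the same order. The median absolute log2 fold change of the genes above the floor was 0.34, 0.35, 0.5 and 0.29 in the same order, against 0.42, 0.49, 0.45 and 0.54 over all tested genes. Changes are relative to TMM scaling. Scaling by library totals alone moved the median of all genes by 0.202 on the log2 scale in macrophages and by 0.133 in myotubes under butyrate, and small changes in those cells depend on this choice.

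**Figure D2:**
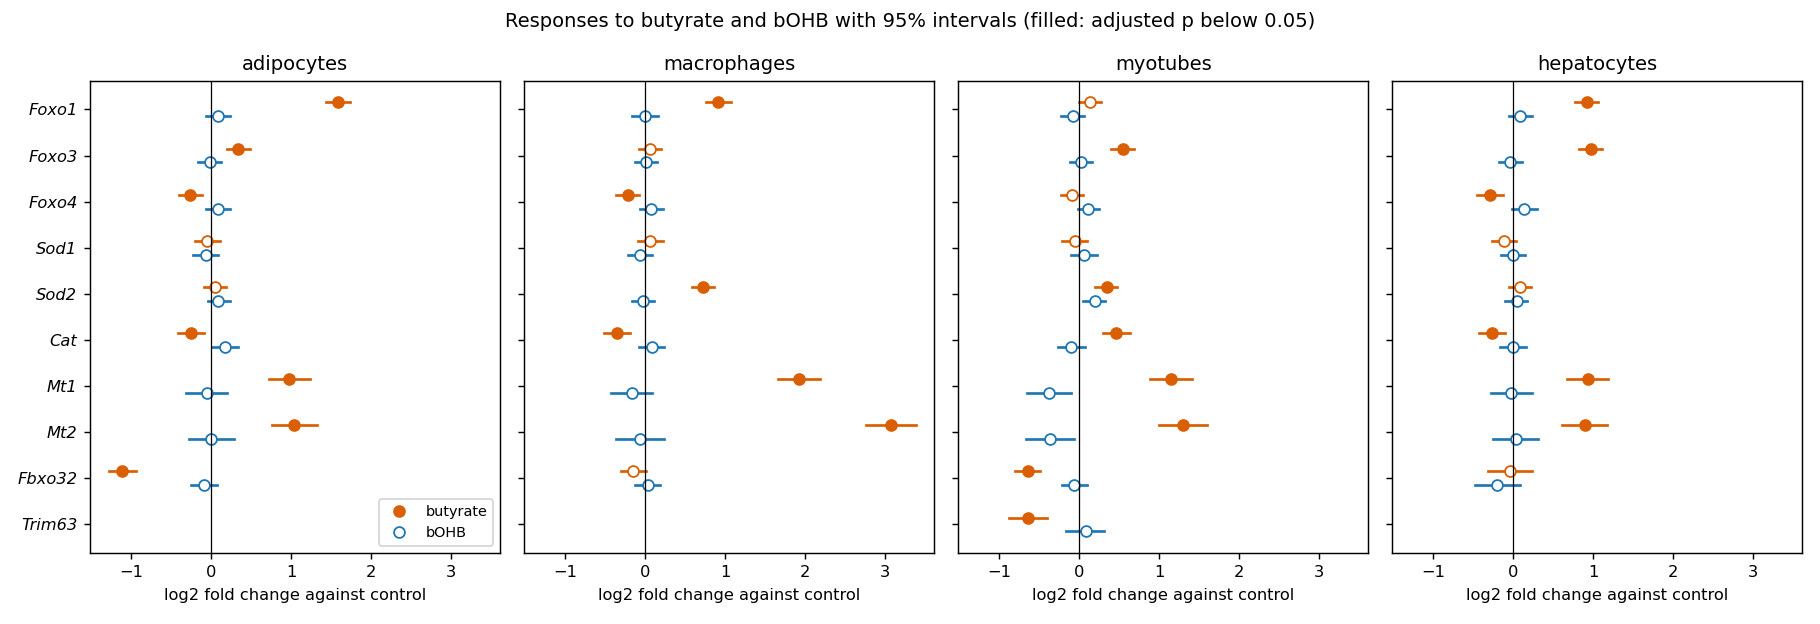
Log2 fold change against the PBS control (horizontal axes, the same in all panels) with 95% intervals for butyrate (orange) and βOHB (blue) in each cell type, with filled points where the adjusted p was below 0.05 and Trim63 shown only where it was above the detection floor. Mt2 in macrophages, at 3.07, lies farthest from 0, and every βOHB point is open.

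Mt1 and Mt2 rose under butyrate in each of the 4 cell types. In macrophages, Mt2 was at 44.6, 38.8 and 43 CPM in the control libraries and at 397, 311 and 352 CPM under butyrate. It was thus 8.38-fold higher (95% interval 6.77 to 10.4), with a log2 fold change of 3.07 ± 0.15 (SE; adjusted p = 4.74e-17). Mt1 in macrophages was at 107, 93.4 and 101 CPM in the controls and at 417, 344 and 375 CPM under butyrate, which is 3.78-fold higher (adjusted p = 5.26e-14). No butyrate library overlapped the controls for either gene. The summed level of 8 macrophage markers was 18200 to 18400 CPM in these controls and 11500 to 12100 CPM under butyrate, and its part in the changes was not tested.

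In adipocytes, Mt1 was at 525, 472 and 498 CPM in the controls and at 975, 968 and 991 CPM under butyrate. Mt2 was at 843, 748 and 793 CPM and at 1670, 1670 and 1570 CPM. The libraries did not overlap, and the increases were 1.96-fold for Mt1 (adjusted p = 5.51e-08) and 2.06-fold for Mt2 (adjusted p = 1.23e-07). In hepatocytes, which had the highest metallothionein levels, Mt1 went from 1110, 953 and 935 CPM to 1910, 1950 and 1830 CPM. Mt2 went from 1150, 1030 and 971 CPM to 1930, 2110 and 1810 CPM there. The increases in hepatocytes were 1.9-fold for Mt1 (adjusted p = 1.05e-07) and 1.86-fold for Mt2 (adjusted p = 1.41e-06), and again no library of one group reached into the other.

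In myotubes, Mt1 was at 40.8, 34.8 and 37.8 CPM in the controls and at 61.1, 77 and 112 CPM under butyrate. Mt2 was at 41.8, 37.9 and 46.6 CPM in the controls and at 81.4, 85.9 and 143 CPM under butyrate. Butyrate replicate 3 was the highest for both genes, and all 3 butyrate libraries lay above the controls. The increases were 2.21-fold for Mt1 (log2 1.14 ± 0.13, adjusted p = 5.94e-09) and 2.46-fold for Mt2 (log2 1.3 ± 0.14, adjusted p = 3.94e-09). Hepatocytes express these genes strongly, and 1.4% of their level would be 26.6 CPM of Mt1 and 27.4 CPM of Mt2 in butyrate replicate 2, against 6.59 and 6.77 CPM in replicate 3 and 1.57 and 1.62 CPM in replicate 1. These values use the median of the 6 markers, and the highest marker stood at more than 2 times the median in replicates 1 and 3. Without butyrate replicate 2 the log2 fold changes were 1.2 for Mt1 and 1.41 for Mt2, without replicate 3 they were 0.87 and 0.99, and without both they were 0.72 and 0.97 (adjusted p = 6.06e-06 and 5.81e-07). Both genes were called in each of these fits, and the part of the hepatocyte marker reads in the increase was not tested.

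**Figure D3:**
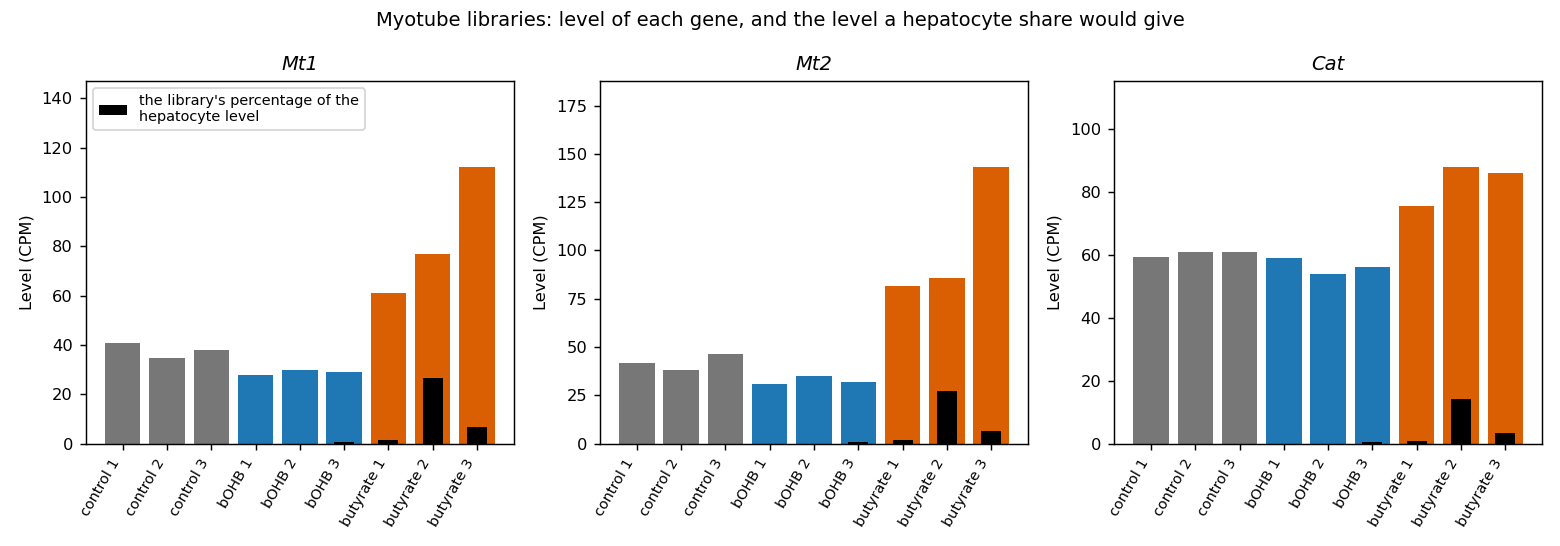
Levels of Mt1, Mt2 and Cat in CPM (vertical axes, from 0) in the 9 myotube libraries, with black bars for the level that the library's median percentage of the hepatocyte level over 6 markers would give. The black bars are tallest in butyrate replicate 2, at 26.6 CPM for Mt1 and 14.1 CPM for Cat, and all butyrate bars stand above the controls.

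The butyrate responses of the metallothioneins differed among the cell types by an F test of the interaction (adjusted p = 2.6e-05 for Mt1 and 1.54e-10 for Mt2), as they did for 74.5% of all tested genes. Between pairs of cell types, responses differed for 36.6% of all tested genes (adipocytes and macrophages), 36.8% (adipocytes and myotubes), 41.4% (adipocytes and hepatocytes), 43.5% (macrophages and myotubes), 44.4% (macrophages and hepatocytes) and 48.4% (myotubes and hepatocytes). The response of Mt2 in macrophages exceeded that in adipocytes by 2.03 ± 0.2 on the log2 scale, that in myotubes by 1.77 ± 0.2 and that in hepatocytes by 2.18 ± 0.2. Adipocytes, myotubes and hepatocytes did not differ from each other in the response of Mt2 at an adjusted p below 0.05, and the 95% interval of the difference between myotubes and hepatocytes was 0 to 0.81. For Mt1, too, macrophages exceeded the other 3 cell types, by 0.78 to 0.99. Over the 36 libraries the log2 levels of Mt1 and Mt2 were correlated with r = 0.967, a description in which cell type and treatment are shared by the points.

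Foxo1, the FOXO factor best known for fasting gene expression in liver and fat, rose under butyrate in adipocytes, macrophages and hepatocytes. In adipocytes it was at 40.7, 41.1 and 40.5 CPM in the controls and at 120, 123 and 125 CPM under butyrate, a 3.01-fold increase (95% interval 2.72 to 3.32, adjusted p = 8.82e-18). In macrophages it went from 21.4, 21.2 and 20.8 CPM to 37.9, 41.2 and 39.9 CPM, which is 1.88-fold higher (adjusted p = 7.59e-12). In hepatocytes it went from 62.2, 79.4 and 70 CPM to 137, 132 and 131 CPM, which is 1.89-fold higher (adjusted p = 8.68e-13). In these 3 cell types the groups were well apart. In myotubes the controls were at 56, 52.7 and 59.9 CPM and the butyrate libraries at 64.5, 61.2 and 59 CPM, and these groups overlapped, with a log2 fold change of 0.13 (95% interval -0.01 to 0.27, adjusted p = 0.0993). That value was past the threshold under RLE scaling (0.16), in DESeq2 (0.16), under library totals (0.27) and without control replicate 3 (0.18). The response in adipocytes exceeded that in macrophages by 0.68 ± 0.1 on the log2 scale, that in hepatocytes by 0.67 ± 0.1 and that in myotubes by 1.46 ± 0.1, and for macrophages against hepatocytes the 95% interval of the difference was -0.22 to 0.21.

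Foxo3, a FOXO factor tied to atrophy and oxidative stress resistance, followed another order. It rose most in hepatocytes, from 60.8, 74.5 and 71.3 CPM to 144, 137 and 123 CPM (1.95-fold, adjusted p = 2.17e-13). In myotubes it went from 91.6, 94.7 and 101 CPM to 146, 142 and 129 CPM (1.45-fold, adjusted p = 3.22e-08), and without butyrate replicates 2 and 3 the log2 fold change was 0.63 beside 0.54 with all libraries. In adipocytes it went from 54, 49.4 and 51.8 CPM to 63.7, 64.4 and 68.6 CPM (1.27-fold, adjusted p = 8.78e-05). Butyrate libraries lay above all controls in these cells. In macrophages, where its control level was highest, the controls were at 112, 112 and 111 CPM and the butyrate libraries at 114, 119 and 116 CPM, without overlap. There the log2 fold change was 0.06 (95% interval -0.08 to 0.2, adjusted p = 0.448), and the threshold was passed under library totals alone (0.28) and with only the 9 macrophage libraries in the model (0.1, adjusted p = 0.0368). The response in hepatocytes exceeded that in macrophages by 0.91 ± 0.1, that in adipocytes by 0.62 ± 0.1 and that in myotubes by 0.42 ± 0.1 on the log2 scale.

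Foxo4 was lower under butyrate by a small amount in adipocytes, macrophages and hepatocytes. It fell by 0.26 on the log2 scale in adipocytes (22.8, 25.4 and 23.2 CPM against 18.3, 20 and 21.4 CPM, adjusted p = 0.00256). It fell by 0.29 in hepatocytes (18.4, 21.5 and 19.2 CPM against 17, 15.8 and 15.4 CPM, adjusted p = 0.00157). It fell by 0.22 in macrophages (28.2, 24.6 and 28.2 CPM against 23, 23.4 and 23.1 CPM, adjusted p = 0.00638), and scaling by library totals gave 0 there. In each case all butyrate libraries lay below all controls. In myotubes, which had the highest level, the change was -0.09 (95% interval -0.23 to 0.04), and it was -0.01 without butyrate replicates 2 and 3. The responses of Foxo4 did not differ among the cell types at an adjusted p below 0.05 (adjusted p = 0.249), but under library totals they did (adjusted p = 0.0439). In adipocytes and hepatocytes, then, the 3 FOXO genes split in direction, with Foxo1 and Foxo3 raised and Foxo4 lowered.

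Among the antioxidant enzymes, Sod1 passed the test in no cell type under butyrate, with log2 fold changes of -0.05 in adipocytes, 0.06 in macrophages, -0.06 in myotubes and -0.12 in hepatocytes. The 95% intervals lay within -0.27 and 0.22, and the libraries overlapped in all 4 comparisons. In macrophages, library totals alone gave 0.29, past the threshold, and under that scaling the responses of Sod1 differed among the cell types (adjusted p = 0.0338, beside 0.45). In myotubes the value was -0.08 without butyrate replicates 2 and 3. Sod2 rose in macrophages, from 73.4, 76.4 and 72.9 CPM to 126, 117 and 123 CPM, which is 1.65-fold higher (adjusted p = 1.1e-10). In myotubes it went from 132, 144 and 137 CPM to 183, 187 and 150 CPM (1.26-fold, adjusted p = 5.7e-05), and all butyrate libraries were above the controls, though replicate 3 by little. The log2 fold change of Sod2 in myotubes was 0.34 with all libraries, 0.28 without butyrate replicate 2 and 0.44 without replicates 2 and 3. In adipocytes and hepatocytes, whose control levels were higher, the changes were 0.05 (95% interval -0.09 to 0.18) and 0.08 (-0.05 to 0.22), with 0.15 in hepatocytes under library totals, past the threshold, and the response in macrophages exceeded these by 0.67 ± 0.09 and 0.64 ± 0.09.

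Cat changed in opposite directions. It was lower under butyrate in macrophages, at 402, 409 and 403 CPM in the controls and 327, 323 and 299 CPM under butyrate (0.782-fold, adjusted p = 0.000275). Smaller decreases were found in adipocytes, from 665, 810 and 783 CPM to 607, 651 and 640 CPM (0.84-fold, adjusted p = 0.00743), and in hepatocytes, from 1140, 1350 and 1130 CPM to 992, 1060 and 961 CPM (0.832-fold, adjusted p = 0.00438). The groups did not overlap in these cells. Without control replicate 2 the adjusted p was 0.0589 in adipocytes (log2 -0.19) and 0.0658 in hepatocytes (log2 -0.18), and library totals alone gave -0.16 in adipocytes and -0.13 in macrophages, short of the threshold. In myotubes, where its control level was lowest, Cat rose from 59.2, 60.7 and 60.7 CPM to 75.5, 87.7 and 85.9 CPM (1.38-fold, log2 0.46 ± 0.08, adjusted p = 1.33e-05). At the median marker percentage, the hepatocyte level of Cat would correspond to 14.1 CPM in butyrate replicate 2 and to 0.832 and 3.48 CPM in replicates 1 and 3. The log2 fold change was 0.42 without replicate 2 and 0.35 without replicates 2 and 3 (adjusted p = 0.00825). The response in myotubes exceeded that in adipocytes by 0.71 ± 0.11, that in macrophages by 0.82 ± 0.11 and that in hepatocytes by 0.73 ± 0.11 on the log2 scale.

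The ubiquitin ligases Fbxo32 and Trim63 were both lower in butyrate-treated myotubes. Fbxo32 was at 69.3, 79.9 and 81.9 CPM in the controls and at 51.3, 51.8 and 44.8 CPM under butyrate, which is 0.64-fold (95% interval 0.575 to 0.712, adjusted p = 1.16e-08). Trim63 was at 51, 52 and 53.4 CPM in the controls and at 36.9, 34.1 and 29.2 CPM under butyrate, which is 0.641-fold (95% interval 0.543 to 0.757, adjusted p = 4.16e-05). No library of one group reached into the other for either gene. Without butyrate replicates 2 and 3 the log2 fold changes were -0.56 for Fbxo32 and -0.47 for Trim63 (adjusted p = 0.013), beside -0.64 for both with all libraries. The summed level of 8 myotube markers also differed between the groups, at 26300 to 32500 CPM in the controls and 17500 to 24500 CPM under butyrate, with 3 of the 8 markers lower by the test, and the part of this in the change of the ligases was not tested. The lower levels of Fbxo32 and Trim63 stood beside a higher level of Foxo3 in the same libraries.

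Outside muscle, Fbxo32 fell most in adipocytes, from 42.1, 40.3 and 42.1 CPM to 19, 19.6 and 18.9 CPM under butyrate (0.463-fold, adjusted p = 6.93e-13). This response was below that in myotubes by 0.47 ± 0.11 on the log2 scale. In macrophages the controls were at 45.5, 44.9 and 45.6 CPM and the butyrate libraries at 38.9, 43.7 and 40.3 CPM, without overlap, but the log2 fold change of -0.15 did not pass the test (adjusted p = 0.101). In hepatocytes the level was low and the change was -0.04 (95% interval -0.32 to 0.23). In adipocytes the rise of Foxo1 and the fall of Fbxo32 were the largest changes among Foxo1, Foxo3, Foxo4, Fbxo32 and Trim63 above the detection floor in the 4 cell types. Trim63 was nominally called between butyrate and βOHB in hepatocytes, but its levels there were 0 against 0.105 to 0.117 CPM, at the detection floor, and no difference is read from them.

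βOHB changed none of the 10 genes at an adjusted p below 0.05 in any cell type, by edgeR, limma-voom or DESeq2. Of 37 comparisons above the floor, 4 had an unadjusted p under 0.05, 33 had a 95% interval that held 0, and 35 had an interval within 0.5 of 0 on the log2 scale. Over all tested genes, βOHB changed 0.00652% in adipocytes, 0% in macrophages, 2.91% in myotubes and 0.00652% in hepatocytes, and an unadjusted p under 0.05 was found for 7.15%, 2.33%, 13.7% and 5.51% in the same order. For the genes proposed as βOHB targets, Foxo3 had log2 fold changes of -0.02 in adipocytes, 0.01 in macrophages, 0.02 in myotubes and -0.04 in hepatocytes, and all 4 intervals lay within -0.18 and 0.16. Foxo3 was at 52.6, 47.4 and 52.5 CPM in βOHB-treated adipocytes, 112, 115 and 109 CPM in macrophages, 103, 91 and 97.3 CPM in myotubes and 71.5, 67.6 and 62.4 CPM in hepatocytes, overlapping the control values in each. Cat was at 802, 891 and 849 CPM in βOHB-treated adipocytes, with a log2 difference of 0.17 (95% interval 0.01 to 0.33), an unadjusted p of 0.0405 and an adjusted p of 0.683. The log2 difference of Cat under βOHB was 0.08 in macrophages (95% interval -0.08 to 0.24), -0.1 in myotubes (-0.27 to 0.07) and -0.01 in hepatocytes (-0.17 to 0.16). In myotubes Cat was at 58.9, 53.8 and 56.2 CPM under βOHB, below all controls.

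The other 3 low p-values under βOHB were in myotubes. Sod2 was at 155, 162 and 153 CPM there, above all controls, with a log2 difference of 0.19 ± 0.07 (95% interval 0.05 to 0.32, adjusted p = 0.163). Mt1 was at 28, 30 and 29.1 CPM, below all controls, with a difference of -0.38 ± 0.13 (95% interval -0.65 to -0.11, adjusted p = 0.146). Mt2 was at 30.6, 34.9 and 32 CPM, also below all controls, with a difference of -0.37 ± 0.15 (95% interval -0.67 to -0.07, adjusted p = 0.219). The libraries of the 2 groups did not overlap for 5 of the 10 genes in myotubes, as for 22.9% of all tested genes. This was so for 1 of 9 genes in adipocytes (12.7% of all), 1 of 9 in macrophages (11.1%) and 0 of 9 in hepatocytes (6.71%). With no filter on low counts, Mt1 and Mt2 passed the threshold in this comparison (log2 -0.42 and -0.41, adjusted p = 0.00142 and 0.00237). The summed macrophage markers were also lower in these βOHB libraries, as given above, and their part in these differences was not tested. Without βOHB replicate 3, the βOHB library with the most hepatocyte marker reads, the differences were 0.2 for Sod2, -0.38 for Mt1 and -0.36 for Mt2. The responses to βOHB did not differ among the cell types at an adjusted p below 0.05 for any of the 10 genes, against 0.978% of all tested genes, and the lowest unadjusted p among the members was 0.133.

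The compounds were compared directly at 5 mM and 6 h in each cell type, with the libraries of one against those of the other and p-values adjusted over all tested genes. Butyrate and βOHB differed in 7 of 9 genes in adipocytes, 7 of 9 in macrophages, 9 of 10 in myotubes and 6 of 9 in hepatocytes, beside 59.5%, 64.7%, 66% and 63.5% of all tested genes. The largest difference was that of Mt2 in macrophages, where butyrate exceeded βOHB 8.75-fold (95% interval 7.06 to 10.9). In myotubes the differences of Mt1 and Mt2 were larger than those against the control, at 2.87-fold and 3.18-fold, and without butyrate replicates 2 and 3 they were 1.13 and 1.38 on the log2 scale. For Foxo3, butyrate exceeded βOHB 2-fold in hepatocytes, 1.43-fold in myotubes and 1.29-fold in adipocytes, and in macrophages the log2 difference was 0.05 (95% interval -0.09 to 0.19; 0.28 and past the threshold under library totals). For Cat, butyrate was below βOHB in adipocytes (0.747-fold), macrophages (0.74-fold) and hepatocytes (0.836-fold) and above it in myotubes (1.48-fold). Sod1 did not pass the test in any cell type, with intervals of the difference within -0.28 and 0.28, but it did so in hepatocytes without βOHB replicate 3 (log2 -0.19, adjusted p = 0.0372), and in macrophages with only the 9 libraries of that cell type (0.16, adjusted p = 0.00768) or under library totals (0.35, adjusted p = 0.000119). The comparisons of butyrate with βOHB and with the control share the butyrate libraries, so their values stand side by side and are not independent. Some of these calls depended on single libraries or on the settings. The call of Sod2 in myotubes (log2 0.15, adjusted p = 0.0468) was lost without butyrate replicate 1 (0.11), butyrate replicate 2 (0.09), βOHB replicate 1 (0.14) or βOHB replicate 3 (0.13), and also with no filter on low counts (adjusted p = 0.268), with a filter of more than 20 counts (0.053) and with only the 9 myotube libraries (0.0541). That of Fbxo32 in macrophages (-0.18, adjusted p = 0.0446) was lost without any of 5 libraries, with adjusted p between 0.0624 and 0.226, and also in DESeq2, under RLE scaling and with no filter (adjusted p = 0.0711, 0.0596 and 0.077). In macrophages, library totals ended the call of Foxo4 (-0.07 beside -0.3). In myotubes, the call of Foxo1 (0.21) was lost without βOHB replicate 2 (0.16) and with no filter (0.19, adjusted p = 0.0564). That of Foxo4 in myotubes (-0.21) was lost without butyrate replicate 3 (-0.14), without butyrate replicates 2 and 3 (-0.1), under library totals (-0.01, adjusted p = 0.897) and with only the 9 myotube libraries (-0.15, adjusted p = 0.0721).

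Other genes of the same pathways were examined as 4 lists, whose counts stand beside the 61%, 65%, 66.5% and 63.5% of all tested genes that butyrate changed in adipocytes, macrophages, myotubes and hepatocytes. Of 25 regulators and targets of FOXO, 12 rose and 7 fell under butyrate in adipocytes, 7 rose and 10 fell in macrophages, 13 rose and 7 fell in myotubes, and 10 rose and 11 fell in hepatocytes. Library totals alone gave 9 higher and 8 lower in macrophages and 10 higher and 9 lower in hepatocytes. The median log2 fold change of this list was 0.02, -0.08, 0.51 and -0.02 in the same order, against 0, 0, 0 and -0.01 over all tested genes, and without butyrate replicate 2 it was 0.32 in myotubes with 12 rising and 7 falling. Foxo6, a FOXO factor best known from the brain, was near 0 in the controls of adipocytes (0.143 ± 0.0672 CPM), macrophages (0.0144 ± 0.025) and hepatocytes (0.0402 ± 0.0348), and it was at 4.02 ± 0.234, 1.04 ± 0.0319 and 1.57 ± 0.164 CPM under butyrate. Pck1, a gluconeogenic enzyme gene, fell in adipocytes from 34.7 ± 4.68 to 3.56 ± 0.444 CPM and in hepatocytes from 84.4 ± 2.41 to 33.1 ± 5.3 CPM. Sgk1, a kinase gene related to AKT, fell in macrophages from 172 ± 6.25 to 71 ± 2.32 CPM, and Sirt1, which encodes a deacetylase that acts on FOXO proteins, fell in myotubes from 19.6 ± 0.953 to 10.5 ± 0.875 CPM (log2 fold change -0.9, and -0.83 without butyrate replicates 2 and 3). Igfbp1, a liver gene, was called higher in myotubes, at 1.63, 33.1 and 6.89 CPM under butyrate, and the median marker percentage of the hepatocyte level would be 1.96, 33.2 and 8.21 CPM.

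Of 27 other antioxidant genes, more fell than rose under butyrate in each cell type, with 2 higher and 8 lower in adipocytes, 5 and 12 in macrophages, 4 and 9 in myotubes, and 3 and 17 in hepatocytes. Of all tested genes 30.3% to 33.4% were lower and 30.7% to 33.1% higher, and the median log2 fold change of the list was -0.12, -0.11, -0.14 and -0.49. Library totals alone turned this split in macrophages (10 higher and 4 lower) and in myotubes (7 and 4). Without butyrate replicates 2 and 3, 1 of these genes was higher and 11 were lower in myotubes. Slc7a11, the cystine importer, fell in macrophages from 31.3 ± 1.07 to 7.27 ± 0.641 CPM and in adipocytes from 17.7 ± 5.42 to 6.45 ± 1.7 CPM. Gclc, the catalytic subunit of the enzyme that starts glutathione synthesis, rose in macrophages from 70.3 ± 0.936 to 137 ± 3.39 CPM. Gss, which completes that synthesis, fell in myotubes from 80.8 ± 1.53 to 34.9 ± 1.97 CPM (log2 fold change -1.21, and -1.25 without butyrate replicates 2 and 3). The values of Gclc and Gss belong to different cell types and do not contrast the steps within a cell type. Ccs, the copper chaperone of SOD1, rose in adipocytes from 13.8 ± 1.03 to 20.1 ± 0.667 CPM and in hepatocytes from 39.6 ± 3.07 to 65.1 ± 2.73 CPM, while Sod1 itself did not pass the test. Srxn1, which repairs peroxiredoxins, was at 60.2 ± 8.46 CPM in control myotubes and 121 ± 51.3 CPM under butyrate (log2 fold change 1.01, adjusted p = 1.2e-05; 0.56 and 0.00697 without butyrate replicates 2 and 3), and Gpx7, a peroxidase of the endoplasmic reticulum, fell in hepatocytes from 3.75 ± 0.233 to 0.893 ± 0.419 CPM.

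Of 15 tested genes of metal handling, 8 rose and 3 fell in adipocytes, 9 and 4 in macrophages, 10 and 2 in myotubes and 7 and 7 in hepatocytes, with median log2 fold changes of 0.29, 0.63, 0.44 and -0.13, beside the same shares of all tested genes. Without butyrate replicates 2 and 3, 9 rose and 2 fell in myotubes. Slc39a10 and Atp7b were called in myotubes without these libraries too. Library totals alone gave 7 and 4 in hepatocytes. Slc39a10, a zinc importer, fell in adipocytes from 27.7 ± 0.734 to 11.9 ± 0.529 CPM, in macrophages from 37.9 ± 1.47 to 17.5 ± 2.21 CPM and in myotubes from 37.3 ± 3.12 to 16.2 ± 0.656 CPM. Slc39a1, another zinc importer, fell in hepatocytes from 339 ± 12.1 to 142 ± 1.69 CPM. Mt3, another metallothionein gene, was at 0.306 ± 0.0658 CPM in control hepatocytes and 1.4 ± 0.328 CPM under butyrate, and in macrophages it stayed at 0.153 ± 0.0889 CPM or less, too near 0 to read a change. Atp7b, a copper transporter, was at 0.416 ± 0.221 and 1.15 ± 0.102 CPM in control and butyrate-treated adipocytes and at 0.0752 ± 0.0697 and 1.98 ± 0.408 CPM in myotubes. Mt4 and Slc30a10 were too low to be tested.

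Of 25 other atrophy genes, 5 rose and 11 fell in adipocytes and likewise in macrophages, 8 rose and 11 fell in myotubes, and 9 rose and 13 fell in hepatocytes, again beside the shares of all tested genes given above. The median log2 fold change was -0.05, -0.16, -0.1 and -0.21. Without butyrate replicates 2 and 3, 6 rose and 9 fell in myotubes, and the log2 fold changes there were 1.39 for Fbxo31 and -1.43 for Trim54, beside 1.27 and -1.57. Library totals alone gave 8 higher and 7 lower in macrophages, 9 and 9 in myotubes and 7 and 11 in adipocytes. Fbxo31, an F-box gene like Fbxo32, rose in macrophages from 20.9 ± 0.718 to 57.4 ± 1.86 CPM, in myotubes from 34.9 ± 1.71 to 84.3 ± 7.35 CPM and in hepatocytes from 19.9 ± 3.79 to 84.1 ± 7.31 CPM. Trim54, a relative of Trim63 in the sarcomere, fell in myotubes from 86.3 ± 2.26 to 29.1 ± 3.64 CPM, and in hepatocytes it was below 1 CPM, at 0.874 ± 0.279 and 0.112 ± 0.0655. Cblb, a ubiquitin ligase gene, fell in macrophages from 161 ± 3.83 to 69.3 ± 4.42 CPM. In adipocytes, Ddit4, an inhibitor of mTORC1 signalling, rose from 32.6 ± 8.28 to 88.5 ± 5.25 CPM, and Atf4, a factor of the amino acid response, fell from 129 ± 10.4 to 63.2 ± 3.61 CPM. Under βOHB, edgeR called none of the genes of the 4 lists in any cell type, in 368 tests of which 31 had an unadjusted p under 0.05. Limma-voom also called 0, and DESeq2 called 2 in myotubes, Slc39a8 and Atp7b (edgeR adjusted p = 0.125 and 0.0891).

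**Figure D4:**
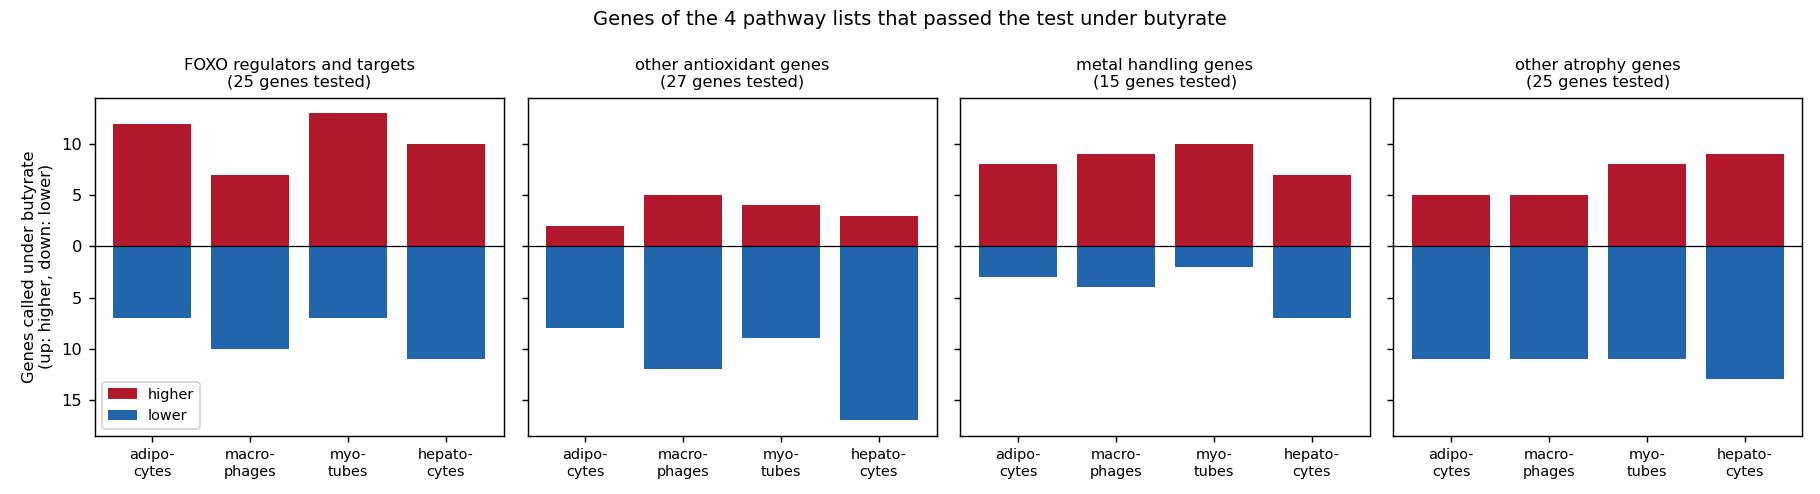
Number of genes (vertical axis, upward for higher and downward for lower) of 4 pathway lists that passed an adjusted p of 0.05 under butyrate in each cell type, with TMM scaling. The list of other antioxidant genes leans downward, with 17 of 27 genes lower in hepatocytes, but library totals alone turn that list in macrophages and myotubes, and metal handling genes lean upward in myotubes, with 10 of 15 higher.

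For each of the 10 genes, the tested genes with the most similar log2 level over the 36 libraries were listed, as a description in which cell type accounts for much of the likeness. The closest to Foxo1 were the clock repressor Cry2 (r = 0.964) and the channel gene Aqp11 (r = 0.937), and those to Foxo3 were Herc1 (r = 0.969) and Inpp4a (r = 0.951). Foxo4 was closest to Setd7 (r = 0.983) and Nexn (r = 0.982), Sod1 to Slc25a39 (r = 0.988) and Nadk (r = 0.987), and Sod2 to Enpp5 (r = 0.99) and Gpd1 (r = 0.985). Cat was closest to H2-K1 (r = 0.988) and Erp44 (r = 0.987), Mt1 to Mocs2 (r = 0.98) and Itpr1 (r = 0.976), and Mt2 to Lpcat3 (r = 0.983) and Ap2a2 (r = 0.981). Fbxo32 was closest to Wls (r = 0.981) and Tmem87a (r = 0.98), and Trim63 to the muscle genes Smtnl1 and Asb5 (r = 0.994 for both). The r between Fbxo32 and Trim63 was 0.49.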

How the data were processed

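RNA was sequenced by the study as paired reads of 150 bp. The authors assigned reads with Salmon 1.2.1 to GENCODE M25 transcripts of GRCm38.p6 and deposited estimated counts per gene, summed with tximport. Their methods state scaling by transcript length and library size. Estimated counts from paralogs and pseudogenes can be split by this assignment.

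Rounding gave whole numbers for the quasi-likelihood F test of edgeR 4.0.16 in R 4.3.3, after TMM scaling. A single model held the 36 libraries, with Benjamini-Hochberg adjustment over all tested genes. Genes above 1 CPM in at least 6 libraries (15340) were tested, and a call is an adjusted p below 0.05. Levels and standard errors come from the same model or its scaling, log2 levels used a prior count of 2, and the floor is 3 counts per library. The scripts were tested on simulated data. Symbols, positions and exon lengths came from GENCODE M21, which holds 54094 of the 54347 genes, and upstream sequences from RefSeq. Replicates were distinct libraries (chi-square per gene 2.68 to 45).

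The members, lists and alternatives were chosen with earlier results of these data known. All 10 members are named. From each list and cell type the raised and the lowered gene with the largest fold change among called genes without overlap are named, with every list gene called under βOHB, and for each member the 2 tested genes of highest correlation. Alternatives were limma-voom (limma 3.58.1), DESeq2 1.42.0, RLE scaling, library totals, other filters, an unadjusted P below 0.001, a replicate block, only the libraries of the cell type, and each library left out. Leaving out myotube butyrate replicates 2 and 3 together was added after seeing the data, and the lone library was then assumed to vary like the other groups. No permutation test of single genes was run, since permuting 3 against 3 libraries cannot give a p below 0.05.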

Additional observations from a re-analysis of the deposited data

Results flagged for a closer look

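For 7 of the 10 genes the butyrate response differed among the 4 cell types by the F test of the interaction in edgeR, as for 74.5% of all tested genes. The adjusted p was 3.24e-12 for Foxo1, whose log2 fold changes were 1.59 in adipocytes, 0.91 in macrophages, 0.13 in myotubes and 0.92 in hepatocytes. It was 2.03e-08 for Foxo3, whose values in the same order were 0.34, 0.06, 0.54 and 0.97. It was 6.85e-07 for Sod2 (0.05, 0.72, 0.34 and 0.08) and 6.62e-07 for Cat (-0.25, -0.35, 0.46 and -0.27), the only one of these genes called in opposite directions. It was 2.6e-05 for Mt1 (0.97, 1.92, 1.14 and 0.93), 1.54e-10 for Mt2 (1.04, 3.07, 1.3 and 0.89) and 2.93e-08 for Fbxo32 (-1.11, -0.15, -0.64 and -0.04). The myotube values include libraries with hepatocyte marker reads, and without butyrate replicates 2 and 3 they were 0.22 for Foxo1, 0.63 for Foxo3, 0.44 for Sod2, 0.35 for Cat, 0.72 for Mt1, 0.97 for Mt2 and -0.56 for Fbxo32. Groups of 3 libraries were not tested for outliers.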

How the results depend on the processing

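Of 2461 repeats of a member's test under an alternative, 2407 kept direction and side of the threshold, or were uncalled in both. Of the rest, 36 lost the call with the same sign, 16 gained it, and 2 lost it with an estimate no longer of the same sign. The last 2 came from library totals alone, for Foxo4 under butyrate in macrophages (0 beside -0.22) and Fbxo32 between butyrate and βOHB in macrophages (0.05 beside -0.18). Neither was called in the other direction. Library totals also moved 61 of 120 group levels by more than 1 SD. With no filter on low counts, 2 members (Mt1 and Mt2) were called under βOHB in myotubes, beside 0. Over all genes, among limma-voom, DESeq2, the block and no filter, counts of calls moved by more than 1.5 times only for βOHB: with no filter they were 192, 35, 895 and 48 in adipocytes, macrophages, myotubes and hepatocytes, and in DESeq2 3, 2, 615 and 2, beside 1, 0, 446 and 1. For the βOHB response among cell types they were 787 with no filter, 334 in DESeq2, 87 in limma-voom and 75 with the replicate block, beside 150. Between libraries of the same cell type and replicate number, deviations from the group means were correlated at -0.264 to 0.273. With means of only 3 libraries, these values cannot decide whether replicate numbers pair the libraries. With the replicate number as a block in edgeR, the called members numbered 7, 6, 7 and 6 under butyrate in adipocytes, macrophages, myotubes and hepatocytes. Fbxo32 between butyrate and βOHB in macrophages lost its call with this block (adjusted p = 0.0632). With each library left out, called members ranged from 6 to 7, 6 to 6, 7 to 8 and 5 to 6 under butyrate in the same order, and between butyrate and βOHB from 7 to 7, 6 to 7, 8 to 8 (9 with all libraries) and 6 to 7. The cause of these changes was not tested. At an unadjusted P below 0.001, the threshold of the study's methods, calls under butyrate were lost for Foxo4 (-0.26) and Cat (-0.25) in adipocytes, Foxo4 (-0.22) in macrophages and Cat (-0.27) in hepatocytes, and 5 were lost between butyrate and βOHB. Trim63 had at most 3 counts per library in adipocytes, macrophages and hepatocytes, so no change could be read there at this depth.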
